A study of Homo sapiens with 6 samples.

Results

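Poly(A) 3′-seq marks the places where RNA is cleaved and given a poly(A) tail, and it is used here to describe the 10 genes of cohesin, its loader and its regulators: SMC1A, SMC3, RAD21, STAG1, STAG2, NIPBL, MAU2, WAPL, PDS5A and PDS5B. Members were all peaks whose summit lay in the annotated body of one of these genes or up to 4 kb past its 3′ end. The rule found 326 of the 200023 peaks in the deposited list, and 240 of the 138552 that passed the cutoff used in the study, a −log10 q of 5 or more. The genes were 10 of 20033 protein-coding genes. The libraries came from IMR-32, a human neuroblastoma cell line, and formed 3 groups of 2. One group received DMSO, the solvent, and the other two received THZ531 at 400 nM, for either 2 h or 6 h. THZ531 covalently inhibits CDK12 and CDK13, kinases that act on RNA polymerase II while it transcribes. The study's methods describe a single round of peak calling after merging, and the merged samples are assumed to be these 6 libraries. The list therefore shows which ends were found in the cells as a whole, with no value for DMSO or THZ531 alone, no replicate error, no depth per library and no strand. As a check of the cell type, 6 of 6 neuroblastoma markers had a transcript-end peak, with 19 to 100 reads at the tallest, against 0 of 4 markers of blood, liver, squamous epithelium and fibroblasts.

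Cohesin is a ring-shaped protein complex that holds sister chromatids together from replication until mitosis and extrudes chromatin loops in interphase. SMC1A and SMC3 form the sides of the ring, RAD21 closes it, and STAG1 or STAG2 binds to RAD21 as an alternative subunit. NIPBL with MAU2 loads the ring on DNA and drives its loop extrusion. WAPL opens the ring to release it, and PDS5A and PDS5B bind it and help either to release or to keep it. Polyadenylation usually takes place a short way past a signal hexamer, most often AATAAA. Where it takes place inside an intron, the RNA stops before the remaining coding exons.

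Each height below is the number of reads at the summit, the reads extended to 100 bp that cover it, as solved from the deposited values. By default, which is assumed to have been in force, the peak caller keeps 1 read per start position and strand, so a height counts distinct start positions and is compressed where many transcripts end at the same base. The highest peak of the whole list had 200 reads and the median over all peaks was 11. Heights are thus no measure of how often an end was used, and ends cannot be ranked by use from them.

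The sequences before the tallest peak in the last exon of each gene are shown first, as the 30 bases that end at its 3′ edge, with the signal hexamer in capitals. All are GRCh38, on the strand of the gene. PDS5A is left out because none of the hexamers lay in its last 30 bases, and no sequence is shown for RAD21. Of these peaks, those of MAU2 and WAPL lay at the end of a protein-coding transcript. Those of STAG1, STAG2 and PDS5B lay at ends annotated for retained-intron or nonsense-mediated decay transcripts, and those of SMC1A and NIPBL at no annotated end. The summit in SMC3 lay 468 bp past the end of a retained-intron transcript, which is inside the window used below. The end NIPBL-202 is that of a shorter protein-coding transcript, and it carried the tallest transcript-end peak of NIPBL.
SMC1A, chrX:53377955-53377984, minus strand: aaaacaaAATAAAtttgtctgttttcaacc
SMC3, chr10:110604605-110604634, plus strand: cttcaATTAAAtaatcggttttatgactaa
STAG1, chr3:136337395-136337424, minus strand: AATAAAgtattctcagtaaaacgaaaatga
STAG2, chrX:124102628-124102657, plus strand: ttAATAAAtcatatgtatttacaatgaaac
NIPBL, chr5:37065164-37065193, plus strand: aaaaaAATAAAcaagtgaatgttggaaatt
NIPBL-202, chr5:37064443-37064472, plus strand: ggattaaaagcAATAAAaacaataatttca
MAU2, chr19:19358727-19358756, plus strand: ttcaaAGTAAAatgacttacaggagccacg
WAPL, chr10:86435255-86435284, minus strand: actcaAATAAAattgctactttcaatacac
PDS5B, chr13:32775878-32775907, plus strand: gtatcAATAAAattctgtaatttgaatgag

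Before the edge of the tallest intronic peak, the same 30 bases held one of the hexamers in PDS5B alone among the 9 genes other than RAD21. That sequence is shown with AATAAA, 15 bases before the edge, in capitals. Past the edge, the longest runs of A in 30 bases were found in SMC1A, MAU2 and STAG1, at 13, 13 and 9 bases, and these are shown with the run in capitals. In the others the run was 3 to 8 bases long, shortest in STAG2. Only bases past the edge enter these lengths. In NIPBL the 30 bases before the edge held 17 A, most of them in an unbroken run up to the edge.
PDS5B intron 1, up to the edge, chr13:32609932-32609961, plus strand: ttttatgctaatggcAATAAAatttaatag
SMC1A intron 15, past the edge, chrX:53401905-53401934, minus strand: atgaaaaaagtAAAAAAAAAAAAAgtggca
STAG1 intron 1, past the edge, chr3:136751152-136751181, minus strand: AAAAAAAAAcgcaatttgtcataaaaaaaa
MAU2 intron 1, past the edge, chr19:19328166-19328195, plus strand: AAAAAAAAAAAAAttttgcaatgccatttc

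A primer that binds A-rich RNA can start a read at such places without a poly(A) tail. The study took as a sign of it 22 or more A among 25 genomic bases, within 50 bp past the edge. Counted past the edge alone, none of the 3 runs above reached that: the best 25 bases held 20 A at SMC1A and 15 A at STAG1 and MAU2. At STAG1 and MAU2, however, A bases ran up to the edge and on past it. At NIPBL they also ran up to the edge, and the best 25 bases past it held 18 A. A sequence of the printed length before the edge held 18 A at STAG1, 17 A at NIPBL and 12 A at MAU2. Read across the edge, 25 bases held at least 22 A at STAG1 and NIPBL, but not at MAU2. Counts past the edge alone thus do not clear the STAG1, NIPBL and MAU2 peaks of such priming, which was not tested.

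All 10 genes had at least 1 transcript-end peak, a summit from 200 bp before to 600 bp past any annotated end of a transcript of that gene, as did 64.1% of all protein-coding genes. Each had 3 to 7 of them, and 28.7% of the detected genes, those with a transcript-end peak, had at least 3. Of the 240 peaks, 45 lay at transcript ends (18.8%, 95% Wilson interval 14.3 to 24.2), 36 in exons outside those ends (15%, 11 to 20.1), 155 in introns (64.6%, 58.3 to 70.4) and 4 further downstream. Over the other detected genes with an intron, the shares were 21.8% at transcript ends, 10.1% in exons and 63.6% in introns. The intervals cover counting error only. The map of peaks along each gene shows where they fell.

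**Figure D1:**
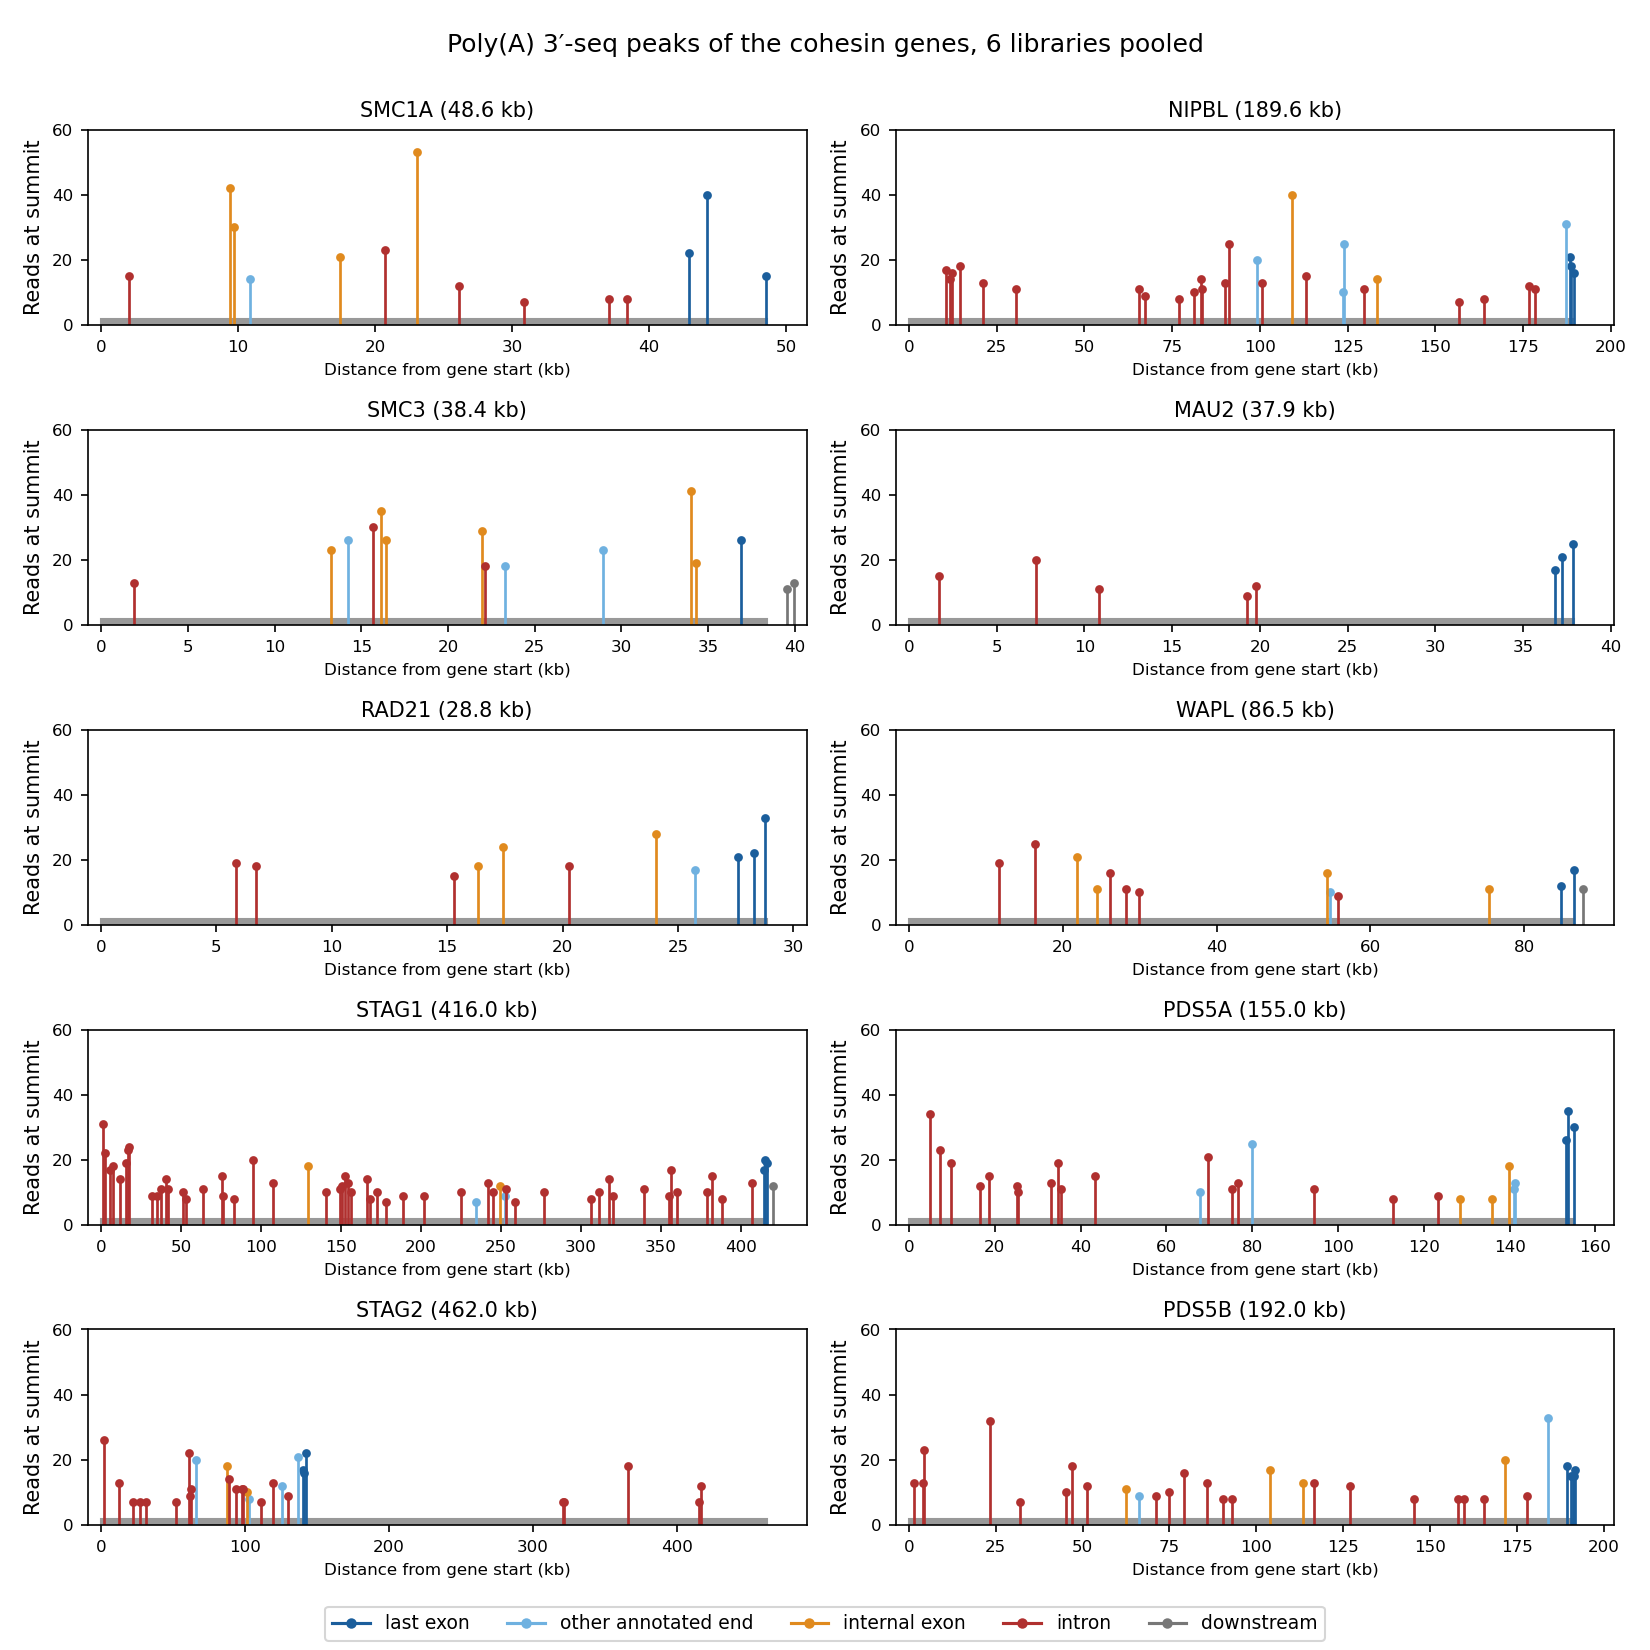
Peaks with −log10 q of at least 5 along the 10 genes, 1 panel per gene, by distance from the gene start (kb) and reads at the summit. The grey bar is the annotated gene. Colours give the last exon, other annotated transcript ends, internal exons, introns and the sequence past the gene. STAG1 carried 51 intronic peaks over its whole length, whereas the peaks of STAG2 lay mostly in the first part of its annotated span.

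SMC1A, which forms one side of the ring, lies at chrX:53374149-53422728 on the minus strand and had 14 peaks. Its last exon held 3 of them, 409, 2151 and 5957 bp past the last coding codon, with 22, 40 and 15 reads. All 3 had AATAAA in the 100 bp before the edge. The tallest peak of the gene, and of all 240, stood elsewhere: 53 reads with the summit in exon 16, after 835 of 1233 codons. Its 3′ edge reached into intron 16, with ATTAAA 14 bases before the edge. Exon 4 held another tall one, of 42 reads. The 6 intronic peaks had 7 to 23 reads, the most upstream in intron 1 with 15 reads and the tallest in intron 15 with 23. Peaks of SMC1A with the summit in an internal exon were thus taller than any with an intronic summit in 3 of 4 cases. These had 53, 42 and 30 reads, against 21 for the fourth.

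SMC3, the partner of SMC1A, lies at chr10:110567684-110606048 on the plus strand and had 15 peaks in 38.4 kb. It was the only member with a single last-exon peak, 335 bp past the last codon, with 26 reads. Another 6 peaks lay in internal exons with 19 to 41 reads, the tallest in exon 24 with 902 of 1217 codons before it. Only 3 had their summit in an intron, at 13, 30 and 18 reads in introns 2, 10 and 14. The last of these stood close to an exonic peak of 29 reads in exon 14. The peak of 30 reads was 226 bp wide, and only its summit was placed. SMC3 also had 2 peaks of 11 and 13 reads past its annotated end.

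RAD21, the subunit that is cleaved to let chromatids part, lies at chr8:116845934-116874776 on the minus strand and is the shortest member, at 28.8 kb. It had 11 peaks. Its last exon held 3, at 416, 1080 and 1573 bp past the last codon, with 21, 22 and 33 reads. AATAAA was present before the second and the third. All 4 of its transcript-end peaks, of 17 to 33 reads, lay inside UTP23, a gene annotated on the other strand, and without strand the reads of the overlapping genes cannot be told apart. The 4 intronic peaks, of 15 to 19 reads, overlapped no other gene. The most upstream was also the tallest, 5.86 kb into the gene in intron 1, before any coding sequence.

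STAG1 and STAG2, the alternative subunits, have the longest annotated spans of the 10, 416 and 462 kb. STAG1 (chr3:136336236-136752403, minus strand) had 59 peaks, the most of any member, and 51 of them were intronic. Intron 1, which precedes the start codon, held 21 of these, and intron 4 held 9. The tallest stood 1.17 kb from the gene start with 31 reads, whereas the last-exon peaks had 17, 20 and 19 reads, at 492, 862 and 2022 bp past the last codon. Those 3 overlap PCCB on the other strand, so the reads cannot be assigned between the genes.

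STAG2 (chrX:123960212-124422664, plus strand) had 30 peaks, 21 of them intronic. Its canonical transcript spans 141 kb, and 5 of the intronic peaks lay past the end of that transcript, between 321 and 417 kb from the start, where SH2D1A, TEX13D or TENM1 is also annotated. Leaving them out gave 16 intronic peaks, of which 9 preceded the coding sequence. The tallest, 26 reads, was again the most upstream, in intron 1 and 2.32 kb from the gene start. Last-exon peaks stood at 290, 899 and 2063 bp past the last codon with 17, 16 and 22 reads. A peak of 21 reads with no hexamer lay in the last intron, at the end of the annotated transcripts STAG2-217 and STAG2-227, with 1261 of 1268 codons before it.

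NIPBL, the larger subunit of the loader and the gene most often mutated in Cornelia de Lange syndrome, lies at chr5:36876769-37066413 on the plus strand. It had 30 peaks. Its tallest, 40 reads, was in exon 10, with 956 of 2804 codons before it. The end of NIPBL-202, in the last intron, came next with 31 reads and 2683 codons before it. The 3 last-exon peaks stood 304, 745 and 1516 bp past the last codon, with 21, 18 and 16 reads, all below that of NIPBL-202. The 21 intronic peaks had 7 to 25 reads. Intron 1 held 8, up to 18 reads, starting 10.6 kb into the gene, and the tallest lay in intron 6.

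MAU2, the partner that stabilises NIPBL, lies at chr19:19320829-19358754 on the plus strand. It had the fewest peaks, 8, and was the only member without a peak in an internal exon. Exonic peaks outside transcript ends were present in the other 9 members and in 48.6% of detected genes. The 3 last-exon peaks of MAU2 were taller the farther they stood from the last codon, with 17, 21 and 25 reads at 1983, 2382 and 2977 bp. None of these had AATAAA, and the second had no hexamer. The 5 intronic peaks, of 9 to 20 reads, were in introns 1 and 5. The most upstream stood 1.72 kb from the start, with 15 reads.

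WAPL, the release factor, lies at chr10:86435256-86521792 on the minus strand and had 14 peaks. Its last exon held 2, of 12 and 17 reads at 536 and 2291 bp past the last codon, both with AATAAA. The taller of them was the lowest among the members' tallest last-exon peaks. By contrast, the tallest peak of WAPL was intronic, 25 reads in intron 2, 16.4 kb into the gene, after 166 of 1190 codons. The most upstream, with 19 reads, was in the same intron. Internal exons held 4 peaks of 11 to 21 reads. A peak of 11 reads with AATAAA stood past the annotated end.

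PDS5A and PDS5B are paralogs with like exon structure. PDS5A (chr4:39822863-39977956, minus strand) had 27 peaks and PDS5B (chr13:32586452-32778019, plus strand) had 32. The last exon of PDS5A held 3, of 26, 35 and 30 reads at 774, 1195 and 2695 bp past the last codon, each with AATAAA. That of PDS5B held 5, all lower, with 18, 15, 15, 15 and 17 reads at 858, 2104, 2765, 2968 and 3440 bp. The tallest of the 32 peaks of PDS5B, 33 reads, was at the end of PDS5B-202, in exon 32 after 1298 of 1447 codons.

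The introns of the paralogs differed in where peaks began, and their first introns differed in length, 0.839 kb in PDS5A and 62.2 kb in PDS5B. In PDS5A, 11 of 17 intronic peaks were in intron 2, which follows 46 of 1337 codons, and the most upstream of them was the tallest at 34 reads, 4.86 kb from the start. In PDS5B, 8 of 21 were in intron 1, which precedes the coding sequence. The tallest there had 32 reads and a −log10 q of 38.3, 23.4 kb from the start, with AATAAA 15 bases before its edge as printed above. Per kb of intron both genes had similar densities, 0.123 and 0.12 peaks.

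In the last exons together, 29 peaks had 12 to 40 reads with a median of 19. A hexamer preceded 27 of them (93.1%, 78 to 98.1), and AATAAA preceded 18. More than 1 such peak was found in 9 of the 10 genes. Apart from SMC3, the distance between the first and the last ran from 994 bp in MAU2 to 5548 bp in SMC1A. No direction was shared: the tallest was the most distal in RAD21, STAG2, MAU2 and WAPL, the most proximal in NIPBL and PDS5B, and in between in SMC1A, STAG1 and PDS5A. Heights within a gene often differed by a few reads, which is within counting error.

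**Figure D2:**
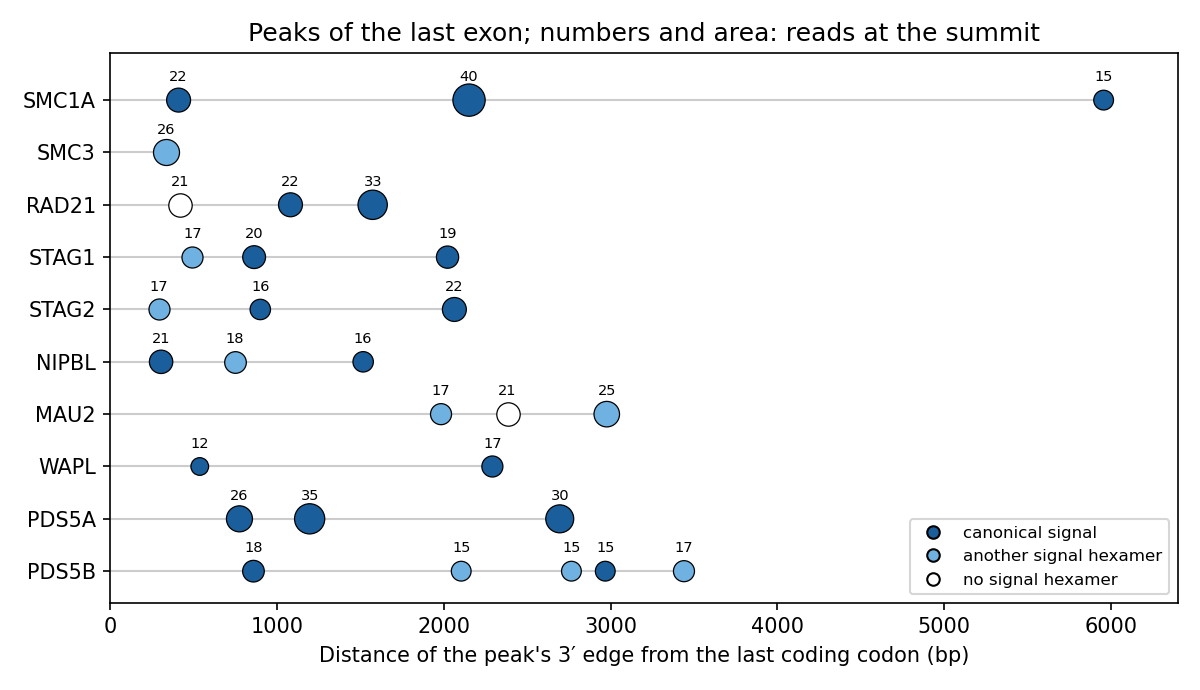
Peaks in the last exon of each gene or up to 600 bp past it, by the distance of the 3′ edge from the last coding codon (bp). The numbers and the area of each point give the reads at the summit, and the fill shows whether the canonical signal AATAAA, another signal hexamer or none was found. SMC3 had 1 such peak at 335 bp, and SMC1A reached 5957 bp.

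Internal exons and internal ends gave another picture. The 30 peaks with the summit in an internal exon had 8 to 53 reads with a median of 18.5, near the median of the last exon. AATAAA was present before 1 of them, a WAPL peak in exon 4, although 21 had at least 1 of the 12 hexamers. An A stretch of at least 22 of 25 followed 0 of the 30, and one of at least 18 followed 1. The 22 peaks at other annotated ends, such as those of retained-intron or shorter coding transcripts, had 7 to 33 reads with a median of 15.5. AATAAA preceded 8 of these.

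The 155 intronic peaks were lower, with 7 to 34 reads and a median of 11. All 10 members had at least 1, as did 79.4% of detected genes with an intron. The counts followed gene length, so each member was set beside the 500 detected genes nearest to it in length. STAG1 had 51 against a median of 23, and 89.4% of those genes had fewer. For NIPBL the count was 21 against 14.5 (73.4% had fewer), and for PDS5B 21 against 15 (72.8%). RAD21, MAU2, PDS5A and SMC1A had 4, 5, 17 and 6 against medians of 3, 4, 14 and 5. STAG2, SMC3 and WAPL had 21, 3 and 6 against 23, 4 and 8. Of the 10, only STAG1 lay outside the middle 50% of its neighbours on the high side, and none lay below it.

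**Figure D3:**
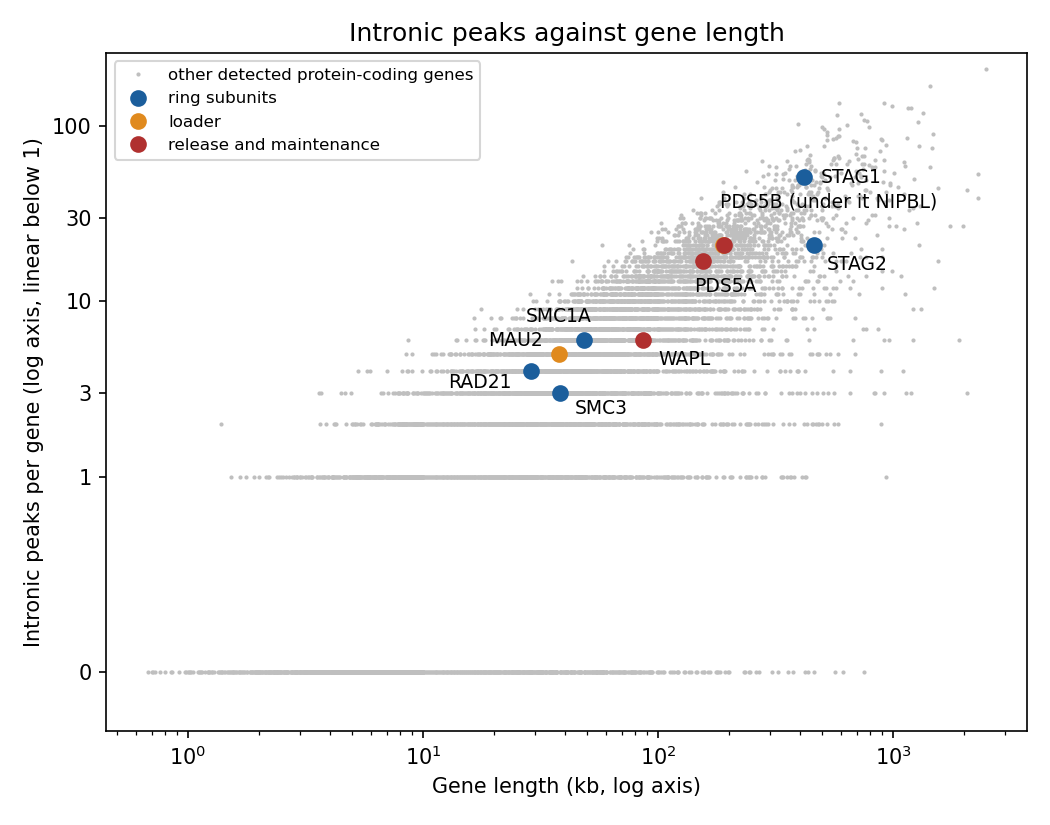
Intronic peaks per gene against gene length for the 10 members (coloured by role) and the other detected protein-coding genes with an intron (grey). Both axes are logarithmic, the vertical one linear below 1. STAG1 stands above STAG2 at a similar annotated length, with 51 against 21 peaks.

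Per kb of intron the members together had 0.103 intronic peaks, against 0.0882 over all detected genes with an intron. Beside the median density of the 500 genes nearest in length, all members but STAG2 and WAPL were denser. STAG1 had 0.126 against 0.0626 and RAD21 0.291 against 0.13, whereas STAG2 had 0.0478 against 0.0614 and WAPL 0.0762 against 0.103. The spread of the neighbours' densities was not taken. The span taken for STAG2 mattered: over its whole annotated length it had 0.0478 per kb and within its canonical transcript 0.119, next to 0.124 for STAG1. On that scale PDS5A, PDS5B and NIPBL had 0.115, 0.114 and 0.117. The 5 longest members thus lay between 0.114 and 0.124 when counted within the canonical transcript, and WAPL had 0.0748.

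The place of intronic peaks relative to the coding sequence was set beside that of intronic bases, with each gene weighted by its peaks. Of the 150 peaks in introns of the canonical transcripts, 48 preceded the first coding codon (32%, 25.1 to 39.8), as did 26.6% of the bases, which lies inside the interval. Before the midpoint of the codons lay 123 peaks (82%, 75.1 to 87.3) and 72.8% of the bases. In the other detected genes 72.9% of such peaks and 68.5% of the bases did. Introns 1 to 4 held 85 of the 150 (56.7%, 48.7 to 64.3) and 43.7% of the bases, against 63.6% and 59% in the other genes. For the latter 2 measures the members' share of bases was below the interval of their peaks.

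Within the 6 members of at least 80 kb, the 24 intronic peaks in the first 20 kb were the tallest, with 12 to 34 reads and a median of 18.5. The 58 between 20 and 100 kb had a median of 11, and the 55 beyond 100 kb a median of 10. The same held in the other detected genes of that length, with medians of 15, 11 and 10. In STAG1 the medians were 20.5, 10.5 and 10 reads, and in PDS5A 19, 12.5 and 8.5. The local background that the peak caller set against each summit moved the same way, from a median of 2.35 reads in the first 20 kb of these members to 0.73 and 0.56 further on. A higher background raises the height a peak needs to pass the cutoff, and its part in the decline was not tested.

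**Figure D4:**
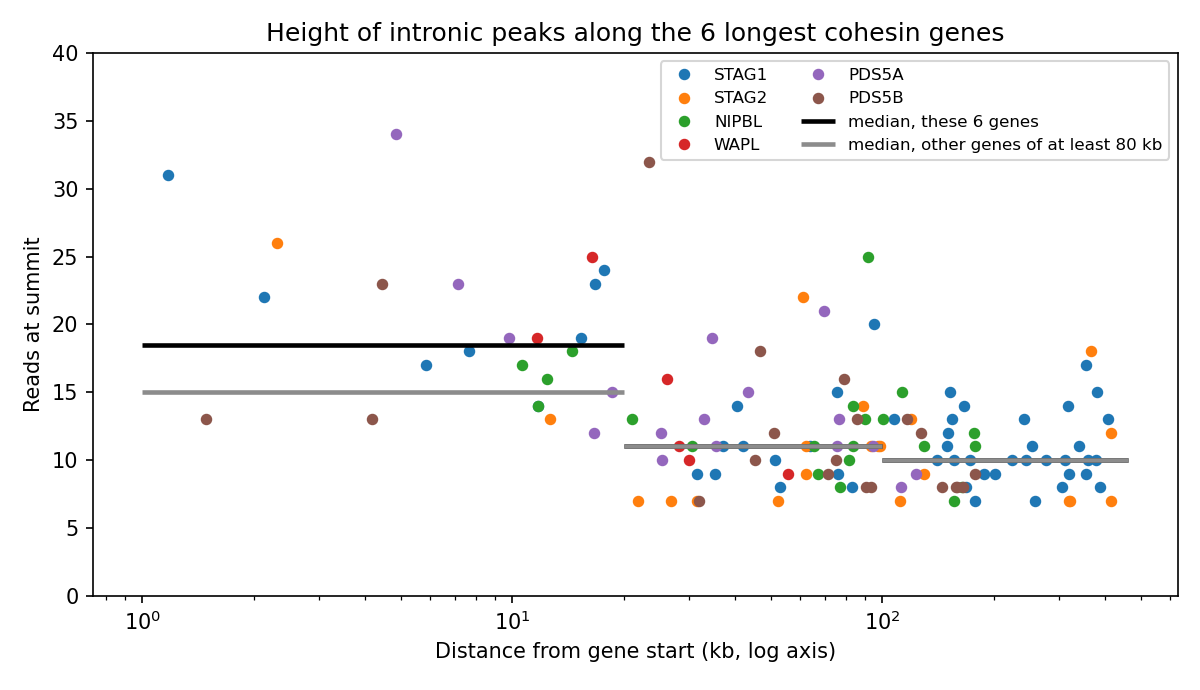
Reads at the summit of each intronic peak in the 6 members of at least 80 kb, by distance from the gene start (kb, log axis), coloured by gene. Black lines give the median of these genes under 20 kb, from 20 to 100 kb and beyond 100 kb (18.5, 11 and 10 reads), and grey lines that of the other detected genes of at least 80 kb (15, 11 and 10). From 20 kb on the lines coincide.

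To see whether intronic peaks could stand as high as those at annotated ends, the tallest of each kind was compared within each gene. In 6 of 10 members the tallest intronic peak was higher than the tallest transcript-end peak, in SMC1A, SMC3, STAG1, STAG2, WAPL and PDS5A. The share among detected genes with an intron was 27.6%, and among those of at least 80 kb it was 43.4%. Counting error alone covers these differences: the exact 95% binomial interval of the intronic share of both heights included 50% in all 10 members. That interval treats the heights as plain counts and leaves out that each is the tallest of its kind. Of the 6, STAG1 had the widest gap, 31 against 20 reads (60.8% of both, 46.1 to 74.2), followed by WAPL with 25 against 17 (59.5%, 43.3 to 74.4). In RAD21 the transcript end was higher, with 33 reads against 19 (36.5%, 23.6 to 51). With all last-exon peaks in place of transcript-end peaks, the count was also 6, but SMC1A and PDS5A left and NIPBL and PDS5B entered. Only SMC1A then had an interval that excluded 50%, with the last exon higher, 40 against 23 reads. A maximum over more peaks tends to be higher, and the long members have many more intronic peaks than ends. Classes here went by the summit. Where any overlap with a transcript end or exon kept a peak out of the introns, the count against transcript ends was 5.

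**Figure D5:**
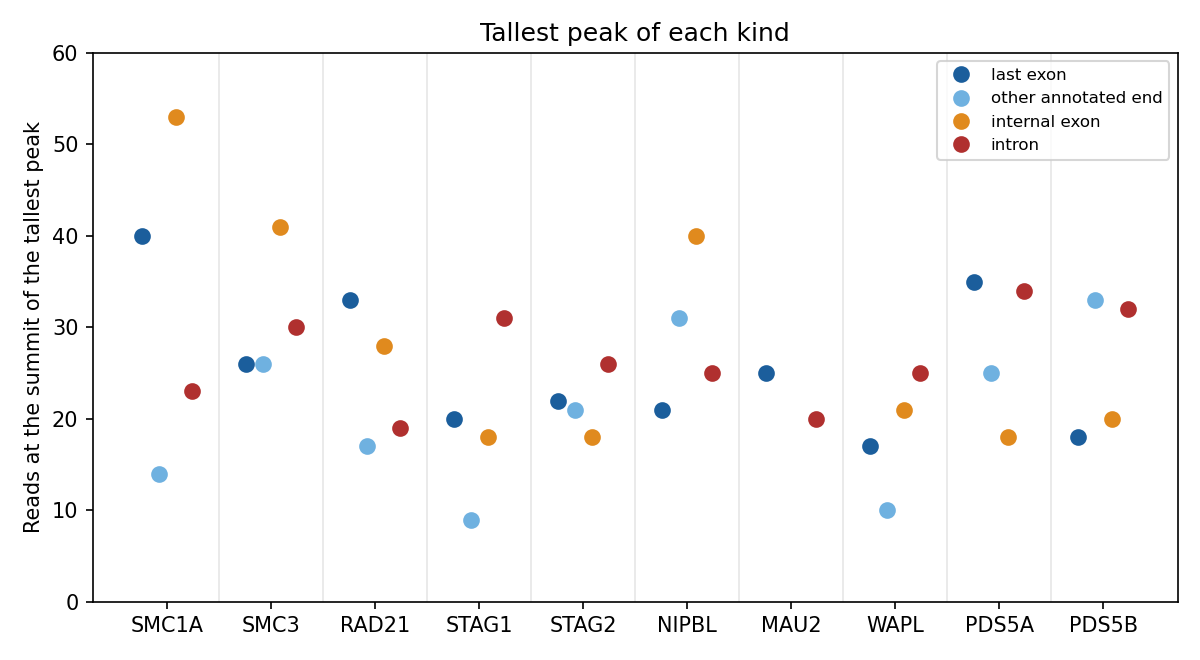
Reads at the summit of the tallest peak in the last exon, at other annotated ends, in internal exons and in introns of each gene. The internal exons of SMC1A, SMC3 and NIPBL held the summits of the tallest peaks of these genes (53, 41 and 40 reads), and MAU2 had none there.

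The signal hexamers were searched on both strands in the 100 bp before the 3′ edge, counting a place once however many overlapped. On the gene strand of the 155 intronic peaks, AATAAA was found at 39, AAGAAA at 24, ATTAAA at 19, AATATA at 12, AATAGA at 11, AATGAA at 11, AATACA at 9, TATAAA at 8, GATAAA at 4, ACTAAA at 2, AGTAAA at 2 and CATAAA at 1. In all, 86 of the 155 had at least 1 hexamer (55.5%, 47.6 to 63.1), and on the opposite strand of the same places 71 (45.8%, 38.2 to 53.7). For AATAAA alone the counts were 39 (25.2%, 19 to 32.5) and 15 (9.68%, 5.95 to 15.4). Both strands were read at the same places, so overlap of these separate intervals does not decide whether the strands differ. In the other detected genes 57.4% of intronic peaks had a hexamer and 26.5% had AATAAA, against 37.5% and 10.2% on the opposite strand. At the members' transcript ends the shares were 77.8% and 48.9%. A match describes the letters and does not show that the signal was used.

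By that measure, 22 or more A among 25 bases, an A stretch followed 9 of the 155 intronic peaks (5.81%, 3.08 to 10.7), against 5.62% in the other genes. With at least 18 A it was 48 (31%, 24.2 to 38.6), against 27.4%. PDS5A had the looser stretch at 9 of its 17 intronic peaks, STAG1 at 17 of 51, and SMC3 at 0 of 3. The study removed peaks that had no hexamer and an A stretch, and 9 of the 240 met both conditions here, 7 of them intronic. These had at most 16 reads and lay in PDS5A, PDS5B, SMC3, STAG1 and WAPL.

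By their medians the members were long and AT-rich, with a length of 121 kb against 36.3 kb for detected genes, and a GC content of 39.1% against 44.8%. Not all were: RAD21 spans 28.8 kb, and MAU2 and SMC1A had 54.4% and 45.5% GC. U1 snRNP binds 5′ splice sites and is known to hold back polyadenylation at nearby signals. Its motifs, taken as GGTGAG or GGTAAG or GTGAGT on the gene strand, were counted against AATAAA over each gene. The members had a median of 0.564 U1 motifs per AATAAA against 1 over detected genes, from 0.454 in NIPBL to 2.28 in MAU2. Genes of like length were not compared for GC content or for this ratio. The 10 genes held 1617 AATAAA in all, far more than the 39 intronic peaks that had one.

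Other genes of sister chromatid cohesion were counted in the same way. Of 17, among them the meiotic subunits, the acetyltransferases that lock the ring, separase with its inhibitor and CTCF, 14 had a transcript-end peak. Their intronic peaks ran from 0 in PTTG1, the securin gene, to 22 in HDAC8, which deacetylates SMC3, with a median of 3.5. All detected genes with an intron had a median of 3 and the members 11.5. Per kb of intron the order differed, with 0.121 in the 14 detected genes and 0.103 in the members. In 3 of the 14 detected genes the tallest intronic peak was higher than the tallest transcript-end peak.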

How the data were processed

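Reads had been mapped to GRCh38, and the submitters' processing notes name STAR 2.5.1b, deepTools 2.5.4, SAMtools and MACS2 2.1.1. The authors called peaks on merged reads with extension to 100 bp and no control, keeping reads with up to 20 placements. The deposited list gives a score, a fold enrichment (the ratio of pileup to background, each plus 1), −log10 p and −log10 q values and a summit offset, and depth per library is unknown. The pileup was solved here from the authors' fold and −log10 p, and 100% of 20000 simulated pileups were recovered. Classes went by the summit, even where the 3′ edge lay in another class. They used only the transcripts of the gene itself, from Gencode release 44 (the study used 27), in the order transcript end, exon, intron, downstream. A peak in overlapping genes counts for each. The 3′ edge is the peak edge nearest the gene's 3′ end. The grouping by last exon was chosen after seeing the data. All 10 members are described, each with its tallest transcript-end and intronic and most upstream intronic peak. Members and lists were chosen with earlier results of these data known. No test across treatments was possible. Python 3.11.15, pandas 2.3.3 and SciPy 1.17.1 were used.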

Additional observations from a re-analysis of the deposited data

How the results depend on the processing

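The alternatives were fixed cutoffs, windows, annotations and signal rules, and 3 (last-exon peaks in place of transcript-end peaks, STAG2 without peaks past its canonical transcript, and leaving out STAG1) were chosen after seeing the data. With no cutoff on −log10 q, 70.6% of the members' peaks were intronic. At a stricter cutoff of 20 the set shrank to 21 peaks, 33.3% of them at transcript ends and 23.8% in introns, with 0.00332 intronic peaks per kb. An A stretch followed 0 of the 5 intronic peaks (interval 0 to 43.4%). Of 4 in introns of the canonical transcripts, 4 lay in introns 1 to 4 (100%, 51 to 100). Then 5 members had a transcript-end peak and in 3 the tallest intronic peak was higher. With a window of 100 bp the transcript-end share was 12.9%, and with the canonical transcript alone it was 3.75%, with 72.1% in introns. The share of intronic peaks with a signal was 25.2% for AATAAA alone, 40.6% in the last 40 bp and 41.3% in 100 bp ending at the summit. An A stretch of at least 18 of 25 was found at 31%. Without those peaks 57.8% were intronic, and without STAG1 57.5%. At the cutoff of 20, 5 of the 155 intronic and 7 of the 45 transcript-end peaks were left. These settings counted other numbers of peaks, genes, bases or ends or used a looser rule, except that the window ending at the summit was moved. The causes of the changes were not tested. The other 70 summary values stayed within their counting interval or within 1.5 times the value in the text. That rule is wide for the count of members whose tallest intronic peak was higher, which was 6 in the text. It was 4 without peaks with at least 18 A of 25, and 8 with the canonical transcript alone. Of the intronic counts per gene, 13 moved by more and 7 did not: with no cutoff, those of STAG1, STAG2 and NIPBL were 78, 32 and 34, and at the cutoff of 20 every member had 0 to 2. Genes of like length were not recounted at those cutoffs. No paired analysis was possible because 1 list was made from merged reads, and no replicate was left out for the same reason.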

Other observations

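Condensin and the SMC5/6 complex are built on SMC proteins related to those of cohesin. Of 14 of their genes, 13 had a transcript-end peak. Among these 13 the intronic peaks ran from 2 in NSMCE4A and NCAPH2 to 25 in NSMCE2, with a median of 7 and 0.148 per kb of intron. The tallest intronic peak was higher than the tallest transcript-end peak in 3. Median heights were 33 reads for the tallest transcript-end peak and 29 for the tallest intronic one, against 25.5 and 25.5 in the cohesin members.

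Below the cutoff of 5 on −log10 q, the cohesin members had another 86 peaks with 3 to 14 reads and a median of 6. STAG1 held 29 of these and NIPBL 14.

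At the border of the 4 kb rule, the last peak inside for STAG1 stood 3718 bp past the gene end with 12 reads, and the first outside 5682 bp past it, also with 12 reads. For SMC3 these were 1563 bp with 13 reads and 18476 bp with 5, and for WAPL 1122 bp with 11 and 33377 bp with 12. PDS5B had its last peak 203 bp past the end, with 17 reads. The other 6 members had none past the end.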
